A study of Canis lupus familiaris with 18 samples.

Results

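The comparison described here is that of high against low light in dog kidney epithelial cells that carry a light-driven source of cyclic AMP. It uses the 3 libraries of MDCKI cells with bPAC given the high dose of light and the 4 libraries of the same cells given the low dose, 7 of the 18 libraries of the series, chosen by their labels alone. MDCKI is an established epithelial line from dog kidney, and bPAC is an enzyme of bacterial origin that turns ATP into cyclic AMP while blue light falls on it. Light was given for 2 h, beginning 16 h after plating, in medium with 0.5% serum, no phenol red and GlutaMAX. The bPAC dark libraries (3) and the parental MDCKI libraries, which carry no bPAC, in high light (2), low light (3) and dark (3) served for reference. The sources used here do not give the power of the light, the promoter that drives bPAC or whether the line is a single clone, and cyclic AMP itself is not among the values.

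Cyclic AMP acts mainly by binding the regulatory subunits of protein kinase A, which then release the catalytic subunits. The freed kinase phosphorylates cytoplasmic targets and, in the nucleus, the transcription factor CREB, which switches on early response genes. In kidney epithelium the pathway controls water channel traffic, ion transport and cell shape. The title of the series concerns a kinase response with 2 phases, and the comparison of the doses addresses which transcripts differ between low and high light.

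Transcripts were counted by 3' end sequencing, and each level below is a normalised read count in CPM (gene reads scaled to a common library size, with TMM factors between libraries). The 7 libraries held 2638511 to 7153601 gene reads and 10617 to 11981 detected genes. Genes carry Ensembl dog IDs in the files, 0 of the 32220 IDs could be paired with a symbol, and no sequence could be tied to them, so genes are given by ID without a role and the label of an epithelial line could not be checked against marker genes. The labels do not say whether replicates are separate cultures, and the p-values below cover the spread of these libraries only, be it technical or not.

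The main axis of variation among the 7 libraries did not part the doses. The first principal component held 40.2% of the variance, and high light libraries scored 27.1, 1.06 and 40.2 on it, against -33.0, 13.9, 7.21 and -56.5 for low light libraries 1 to 4. On this component, low light libraries 1 and 4 lay apart from low light libraries 2 and 3, which lay among the high light ones. The second component held 24.3% of the variance. Scores on it were 22.4, 41.5 and -8.01 in high light and 10.4, -22.2, -34.1 and -10 for low light libraries 1 to 4. There low light libraries 2, 3 and 4 lay below every high light library, and low light library 1 lay among the high light ones. Reads with more than 1 place in the genome were 42.8 ± 1.39% of all counted reads in high light (SD, n = 3) and 39.2 ± 1.58% in low light (SD, n = 4), with no overlap. Counted reads are those in genes plus those in the 5 rows without a gene. Reads outside annotated genes made up 25.8 ± 0.636% in high light and 28.5 ± 1.15% in low light, again with no overlap (exact two-sided permutation p = 0.0571 for each, the smallest that 3 against 4 libraries allow, and 0.114 after Benjamini-Hochberg adjustment over 4 measures). Both are shares of the same total, so a larger share of either leaves less for the other, and their differences are not independent. The 10 most abundant genes took 19.1 ± 2.00% of gene reads in high light and 17.3 ± 1.29% in low light (exact permutation p = 0.229, adjusted 0.305). Ambiguous reads came to 0.0511 ± 0.00733 per 100 gene reads in high light and 0.0526 ± 0.00538 in low light (exact permutation p = 0.800, adjusted 0.800). The part of these differences between libraries in the results below was not tested.

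In high light 442 genes (5.18% of those tested) were higher and 429 (5.03%) lower than in low light, together 871 of the 8530 tested genes, or 10.2%, at an edgeR adjusted p under 0.05. In bulk libraries such as these, less RNA in each cell and fewer cells with that RNA cannot be told apart. Genes that rose were abundant and rose modestly, with a median of 127 CPM in high and 71.7 CPM in low light and a median log2 fold change of 0.80. Genes that fell were scarcer and moved further, with a median of 13.5 CPM in high and 29.0 CPM in low light and a median log2 fold change of -1.08. The size of called changes went with level. Over called genes of both directions the median absolute log2 fold change was 2.58 under 2 CPM, 1.13 between 5 and 20 CPM and 0.68 at 500 CPM or more. The part of level in the difference between the directions was not tested. At least a 2-fold change was fitted for 106 of the 442 genes that rose and for 256 of the 429 that fell, and at least a 4-fold change for 16 and 36. The high and low light libraries did not overlap for 402 of the genes that rose (91.0%) and 403 of those that fell (93.9%), where 21.8% of all tested genes had no overlap in either direction. The genes were called on these same libraries, so the shares describe them and are not a further test.

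The split by level was steep. Among 341 tested genes with a mean of 500 CPM or more over the 7 libraries, 65 (19.1%) were higher in high light and 11 (3.23%) lower. Between 100 and 500 CPM, 154 of 1223 genes (12.6%) were higher and 46 (3.76%) lower. Between 5 and 20 CPM the balance was the other way, with 74 of 2239 genes (3.31%) higher and 138 (6.16%) lower, and of 906 genes under 2 CPM 5 were higher and 18 lower. Summed over the 442 genes that rose, levels were 236400 to 264600 CPM in the high light libraries and 150900 to 159300 CPM in the low light ones. Over the 429 that fell they were 18760 to 21340 CPM in high light and 37730 to 45650 CPM in low light. These sums rest on genes chosen for their difference and describe its size only.

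**Figure D1:**
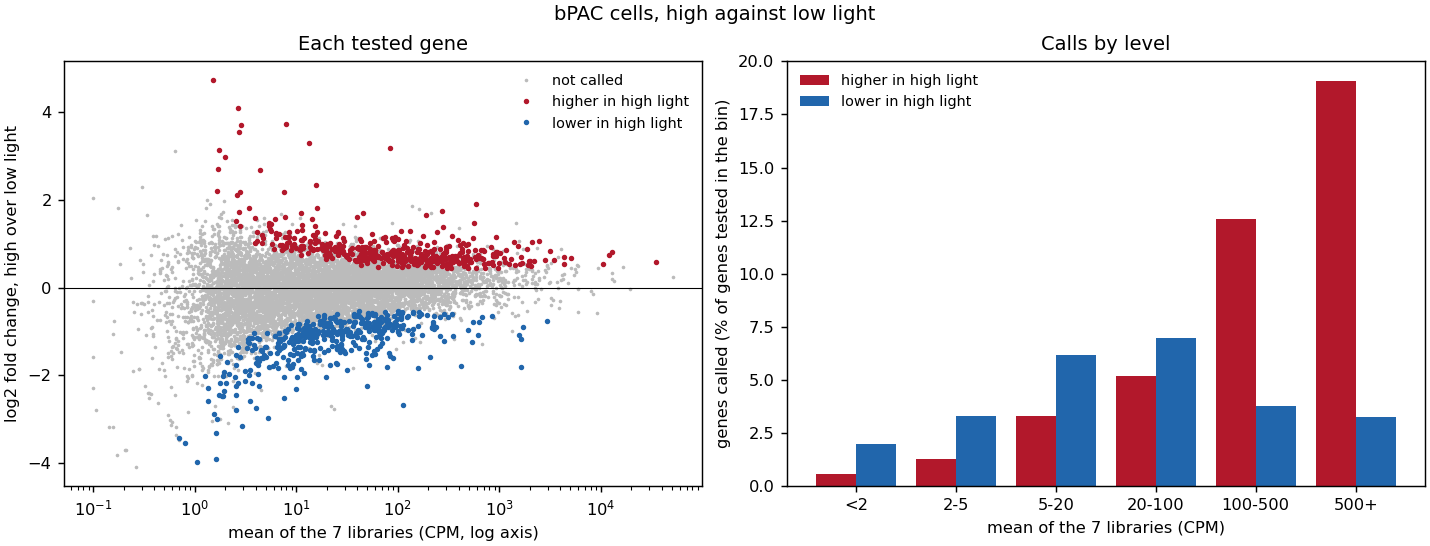
Left, the log2 fold change of high over low light in bPAC cells (y) against the mean of the 7 libraries in CPM (x, log axis) for each of the 8530 tested genes. Right, the share of tested genes called higher or lower in high light (y, percent) in 6 bins of level (x, CPM); calls above 0 outnumber those below 0 from 100 CPM upward (19.1% against 3.23% at 500 CPM or more), and the reverse holds in each bin below 100 CPM. With library totals alone as the scale, fewer genes were higher than lower also from 100 CPM upward.

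This balance depended on how libraries were scaled. TMM factors were 0.857, 0.785 and 0.918 in high light, against 0.981, 1.01, 0.994 and 0.932 in low light. With library totals alone the median log2 fold change of all tested genes moved to -0.20, against 0.00 with TMM, and 148 genes were higher and 858 lower. At 100 CPM or more, 219 genes were called higher and 57 lower with TMM, and 70 higher and 140 lower with library totals alone. Under 20 CPM the counts were 96 higher and 201 lower with TMM, and 39 higher and 363 lower with library totals alone. Each of the 871 genes kept the sign of its fold change under library totals, and 577 of them kept their call. The shift of the median was smaller than the smallest called rise, a log2 fold change of 0.44, and it took falls further down. The kept signs were thus close to fixed in advance and are not a further test.

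ENSCAFG00000013418 had the smallest p among the genes that rose. It stood at 448, 522 and 392 CPM in high light and at 124, 104, 160 and 152 CPM in low light. Every high light library lay far above every low light one, a 3.37-fold difference (log2 fold change 1.75, SE 0.20; edgeR adjusted p = 5.78e-05). The low light level was about that of the dark, where the libraries held 166, 126 and 159 CPM (edgeR adjusted p = 0.542 for low light against dark). ENSCAFG00000016469 had the second smallest p. Its levels were 25.3, 29.4 and 32.7 CPM in high light and 5.72, 7.61, 5.27 and 4.24 CPM in low light, a 5.08-fold difference (log2 fold change 2.35, SE 0.28; edgeR adjusted p = 0.000105). Its dark level was 5.59 ± 0.382 CPM (SD, n = 3), close to the 5.71 ± 1.41 CPM of low light (SD, n = 4), so that for both genes the rise was seen at the high dose.

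ENSCAFG00000000406 had the smallest p of all 8530 genes and fell 6.39-fold. Its levels were 26.0, 27.7 and 29.8 CPM in high light and 141, 180, 192 and 196 CPM in low light (log2 fold change -2.68, SE 0.23; edgeR adjusted p = 2.34e-06). In the dark it stood between the doses, at 102, 69.9 and 115 CPM, below every low light library and above every high light one. ENSCAFG00000016044 followed the same order, at 64.4, 73.3 and 52.1 CPM in high light and 257, 267, 170 and 213 CPM in low light (log2 fold change -1.84, SE 0.19; edgeR adjusted p = 2.76e-05). Its dark libraries held 116, 133 and 121 CPM, again between the doses with no overlap. Both genes were called higher in low light than in the dark (edgeR adjusted p = 0.00369 for ENSCAFG00000000406 and 0.00191 for ENSCAFG00000016044). Both were also called lower in high light than in the dark (edgeR adjusted p = 9.16e-05 and 0.00209). In parental cells, ENSCAFG00000000406 was likewise called higher in low light than in the dark, 1.64-fold (edgeR adjusted p = 0.0374), against 1.85-fold in bPAC cells. ENSCAFG00000016044 was not called between parental low light and dark (edgeR adjusted p = 0.645).

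**Figure D2:**
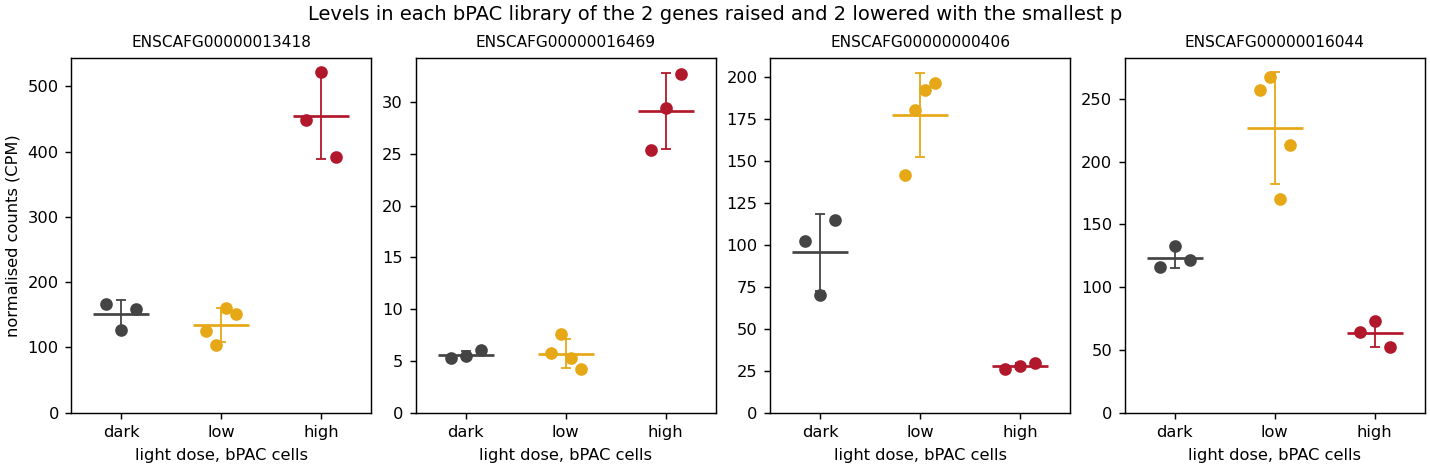
Normalised counts (y, CPM) of the 2 genes that rose and the 2 that fell with the smallest p, in the bPAC libraries kept dark (3) or given low (4) or high light (3) (x). Points are libraries, bars the mean and SD; for ENSCAFG00000013418 and ENSCAFG00000016469 dark and low light overlap and high light lies above both, while for ENSCAFG00000000406 and ENSCAFG00000016044 low light lies above and high light below the dark.

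The number of genes called rested on single libraries. It was 189 without high light library 1, 515 without high light library 2, 555 without high light library 3 and 560 without low light library 4, and 273 in a fit of these 7 libraries alone. With both low light libraries 1 and 4 left out it was 332, and with both 2 and 3 left out 1320. These are the pairs that lay apart on the first principal component of the same libraries, with 2 and 3 among the high light ones. The 332 and 1320 thus follow that grouping and are not a separate test of it. Of the 871 genes, 172 (19.7%) were called in the same direction whichever of the 7 libraries was left out, 92 higher and 80 lower in high light. Of the 92, 87 were also called higher with library totals alone as the scale. That scale moves fold changes down, which favours falls, and all 80 were also called lower. Their median log2 fold changes were 0.92 and -1.39, and at least a 2-fold change was fitted for 37 of the 92 and 65 of the 80. The 4 genes given above were among the 172.

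**Figure D3:**
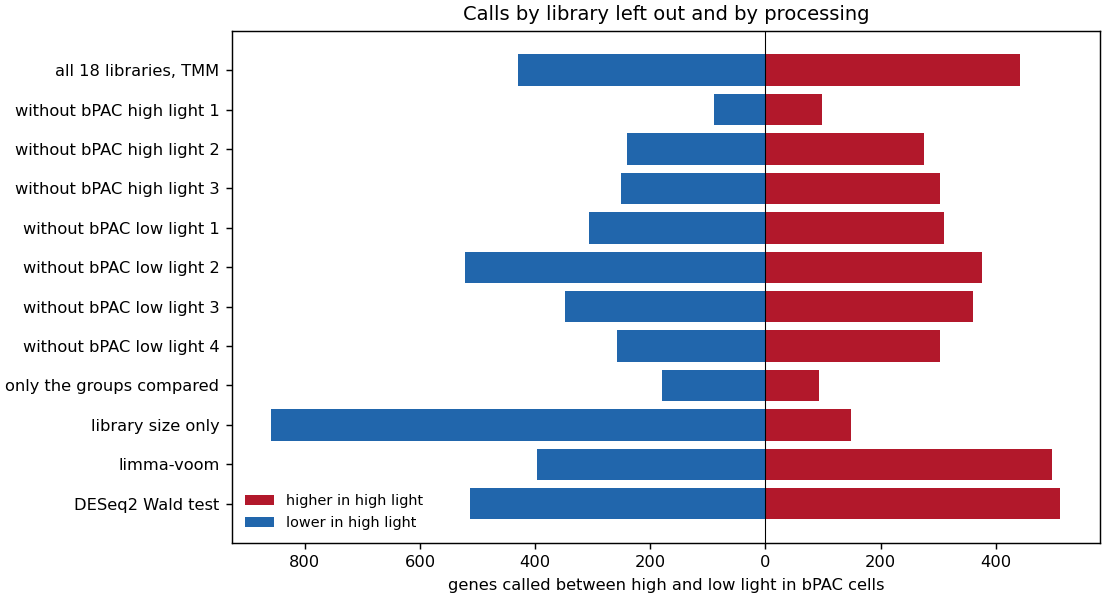
Number of genes called higher (right of 0) and lower (left of 0) in high than in low light in bPAC cells (x), with all 18 libraries, without each of the 7 libraries in turn, and under other processing (y). The lowest total comes without high light library 1 (189), and library totals alone give 148 higher and 858 lower genes.

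How the genes stood against the dark level divides the 871 into groups. The comparisons with the dark share libraries with the comparison of the doses and called many genes: 35.3% of all tested genes in low light (17.2% above and 18.1% below the dark) and 24.6% in high light (12.7% above and 11.9% below it). In parental cells, which carry no bPAC, 976 of the 8530 tested genes were called in low light against the dark (577 higher and 399 lower). In parental high light, with 2 libraries, 15 were called against the dark (12 higher and 3 lower). The groups of the 871 genes are a description: separate libraries are ordered by dose, so a course or step is not a sequence in time. A missing call against the dark does not show an equal level. The most frequent course among the genes that rose was a rise in high light alone: 179 of 442 (40.5%) were not called between low light and dark but were higher in high light than in the dark, with median log2 fold changes against the dark of 0.06 in low and 0.85 in high light. Another 151 (34.2%) were called lower in low light than in the dark and not called against it in high light. Their medians were -0.85 and -0.03. For 92 (20.8%) neither dose was called against the dark, and their medians lay on either side of it, at -0.33 in low and 0.40 in high light. A rise at both steps was called for 17 genes (3.85%).

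Among the 429 genes that fell, the most frequent course had only low light called against the dark. Of them, 192 (44.8%) were called higher in low light than in the dark and not called against it in high light. Their medians were 1.24 and 0.10. A fall in high light alone was called for 115 genes (26.8%), with medians of 0.00 in low and -1.13 in high light. Neither dose was called against the dark for 89 genes (20.7%), with medians of 0.44 and -0.54. A fall at both steps was called for 17 (3.96%). For 9 (2.10%) both doses were called above the dark, with high light below low light. Another 7 (1.63%) crossed the dark level, higher in low light and lower in high light.

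Courses with steps of opposite sign came to 362 genes in all and courses in high light alone to 294. The low light libraries enter both steps with opposite signs, so their spread by itself can add to the opposite steps. How far it did was not tested. Among the 172 genes called whichever of the 7 libraries was left out, the order was the other way, with 96 in high light alone (55.8%) and 62 with opposite steps (36.0%). The 362 became 62 without high light library 1, 182 without high light library 3, 180 without low light library 4 and 216 without low light library 1. The 294 became 85 without high light library 1 and 112 without high light library 2. Opposite steps numbered 56 without low light libraries 1 and 4 and 926 without low light libraries 2 and 3, the pairs that lay apart on the first principal component.

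**Figure D4:**
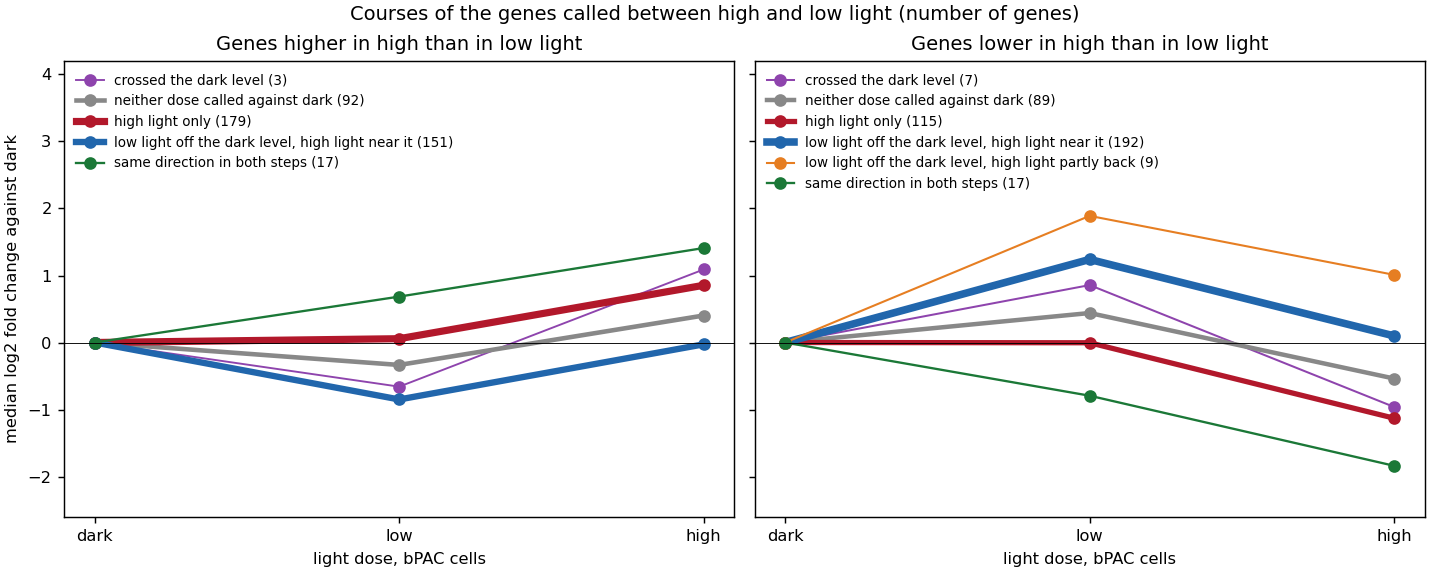
Median log2 fold change against the dark (y) at the low and high dose in bPAC cells (x) for the genes called higher (left) or lower (right) in high than in low light, by course, with the number of genes in the legend and line width growing with it. High light alone (179 and 115 genes) and low light off the dark level with high light near it (151 and 192 genes) hold most genes of either direction. Here "near it" means not called against the dark.

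Of the 34 genes called at both steps in the same direction, 2 that rose and 2 that fell are given in full. ENSCAFG00000009209 stood at 31.5, 27.5 and 19.7 CPM in the dark, at 158, 144, 160 and 201 CPM in low light and at 373, 544 and 386 CPM in high light. The doses did not overlap, and high light exceeded low light 2.62-fold (log2 fold change 1.39, SE 0.35; edgeR adjusted p = 0.0215). ENSCAFG00000003403 held 110, 98.8 and 92.0 CPM in the dark, 262, 221, 195 and 210 CPM in low light and 395, 559 and 258 CPM in high light. High light library 3, at 258 CPM, lay just below low light library 1, so the doses overlapped (log2 fold change 0.86, SE 0.22; edgeR adjusted p = 0.0216). Neither of these calls held without high light library 1 (edgeR adjusted p = 0.0610 and 0.0794) or without high light library 2 (0.0742 and 0.134), and that of ENSCAFG00000009209 was also lost without low light library 2 (0.0513). ENSCAFG00000003403 was not called in a fit of the 7 libraries alone either (0.0773), nor in one of the 10 bPAC libraries (0.0505). In parental cells ENSCAFG00000003403 also rose, with means of 76.6 CPM in the dark, 141 CPM in low light and 192 CPM in high light. Both parental doses were called against the parental dark (edgeR adjusted p = 0.0259 and 0.0491). Its step from low to high light was not called different between the lines (edgeR adjusted p = 0.882). ENSCAFG00000009209 was called against the parental dark at neither dose (edgeR adjusted p = 0.502 and 0.643).

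ENSCAFG00000030354 had 20.2, 16.3 and 15.5 CPM in the dark, 3.82, 9.30, 5.27 and 2.36 CPM in low light and 1.80, 0.849 and 0.827 CPM in high light, the last resting on 16 reads in 3 libraries. The doses did not overlap (log2 fold change -1.99, SE 0.44; edgeR adjusted p = 0.00981), but in a fit of the 7 libraries alone the adjusted p was 0.0755. ENSCAFG00000020215 had 24.3, 37.3 and 27.3 CPM in the dark, 12.4, 12.7, 18.1 and 12.9 CPM in low light and 5.72, 5.66 and 4.96 CPM in high light. Its 3 groups were fully apart (log2 fold change -1.34, SE 0.28; edgeR adjusted p = 0.00671).

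The courses that turn are shown by 2 genes each. ENSCAFG00000014067 had 30.7, 31.7 and 33.9 CPM in high light and 76.8, 88.7, 74.3 and 99.5 CPM in low light (log2 fold change -1.41, SE 0.19; edgeR adjusted p = 0.000274). Its dark libraries, at 30.01, 31.6 and 33.8 CPM, covered the same range as the high light ones. ENSCAFG00000018150 had 23.5, 24.0 and 19.0 CPM in high light, against 68.2, 81.6, 62.3 and 63.0 CPM in low light (log2 fold change -1.62, SE 0.18; edgeR adjusted p = 5.78e-05). Here every high light library lay below every dark one (30.7, 27.2 and 26.8 CPM), but that difference was not called (edgeR adjusted p = 0.207). ENSCAFG00000018150 was also called higher in parental low light than in parental dark (log2 fold change 0.77; edgeR adjusted p = 0.0144). ENSCAFG00000014067 was not called there (log2 fold change 0.58; edgeR adjusted p = 0.0517).

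In the opposite course, ENSCAFG00000013369 had 138, 132 and 145 CPM in high light and 79.7, 78.4, 70.8 and 78.9 CPM in low light (log2 fold change 0.85, SE 0.13; edgeR adjusted p = 0.00131). The dark libraries, at 116, 134 and 136 CPM, overlapped with high light. ENSCAFG00000006100 had 291, 238 and 396 CPM in high light and 75.4, 97.2, 161 and 59.1 CPM in low light (log2 fold change 1.66, SE 0.32; edgeR adjusted p = 0.00462). It was the most variable of these genes in the dark, at 274, 210 and 492 CPM. ENSCAFG00000013369 was also called lower in parental low light than in parental dark (log2 fold change -0.52; edgeR adjusted p = 0.0242). ENSCAFG00000006100 was not called there (log2 fold change -0.13; edgeR adjusted p = 0.835).

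Of the genes that rose, 3 crossed the dark level, lower in low light and higher in high light than in the dark. They are named because they are so few, after their values were seen. ENSCAFG00000002215 had 23.2, 31.4 and 26.9 CPM in high light and 7.63, 8.03, 7.32 and 7.86 CPM in low light (log2 fold change 1.81, SE 0.22; edgeR adjusted p = 0.000132), with 12.3 ± 2.14 CPM in the dark (SD, n = 3). ENSCAFG00000010769 averaged 207 ± 11.1 CPM in high light (SD, n = 3) and 117 ± 6.74 CPM in low light (SD, n = 4; edgeR adjusted p = 0.00168), and 155 ± 16.5 CPM in the dark (SD, n = 3). ENSCAFG00000021344 averaged 13.7 ± 4.09 CPM in high light (SD, n = 3) and 3.07 ± 1.42 CPM in low light (SD, n = 4; edgeR adjusted p = 0.00153), and 6.40 ± 0.942 CPM in the dark (SD, n = 3). For each of the 3 the libraries of the 3 groups did not overlap.

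Parental cells, which carry no bPAC, received the same doses, and their libraries are shared with neither bPAC group. Between high and low light 1 gene was called in parental cells (0.0117% of those tested), with 1080 at an unadjusted p under 0.05. That gene, ENSCAFG00000006164, had 1172 and 690 CPM in parental high light and 234, 246 and 192 CPM in parental low light (edgeR adjusted p = 0.00567). In bPAC cells it had 754, 702 and 1367 CPM in high light and 482, 552, 560 and 518 CPM in low light (edgeR adjusted p = 0.0326). The parental call was lost without parental low light library 1 (edgeR adjusted p = 0.0619) or parental high light library 1 (0.266). The bPAC call was lost without low light library 1 (0.0725), low light library 4 (0.0639), high light library 1 (0.0600) or high light library 3 (0.218), and with library totals alone as the scale (0.0892).

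Apart from that gene, no gene called in bPAC cells passed the test in parental cells, but most had a fold change of the same sign there. Of the 442 that rose in bPAC cells, 404 (91.4%) had a parental log2 fold change above 0, with a median of 0.34, where 51.5% of all tested genes lay above 0 with a median of 0.02. Of the 429 that fell, 337 (78.6%) had one below 0, with a median of -0.41, where 48.5% of all tested genes lay below 0. The 2 parental high light libraries both lay above the 3 low light ones for 248 of the 442 (56.1%; 17.0% of all tested genes), and both lay below them for 200 of the 429 (46.6%; 17.5% of all tested genes). Across all 8530 genes, which are not independent replicates and were scaled together, the fold changes of the lines correlated at r = 0.368 (Spearman's rho 0.442). The parental medians were well under the bPAC ones of 0.80 and -1.08, and the genes had been chosen on the bPAC values.

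The lean in parental cells differed with the course in bPAC cells. For the 151 genes with low light called below the dark and high light not called against it, the parental medians were 0.47 and -0.63. The first is for high over low light, the second for low light over dark. For the 192 with the opposite course the parental medians were -0.67 and 0.72. The 179 genes raised in high light alone had parental medians of 0.27 for high over low light and -0.01 for low light over dark. For the 115 lowered in high light alone they were -0.15 and 0.08, with 73 (63.5%) below 0 for high over low light. Over all tested genes these medians were 0.02 and -0.01. The difference between the courses was not tested.

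**Figure D5:**
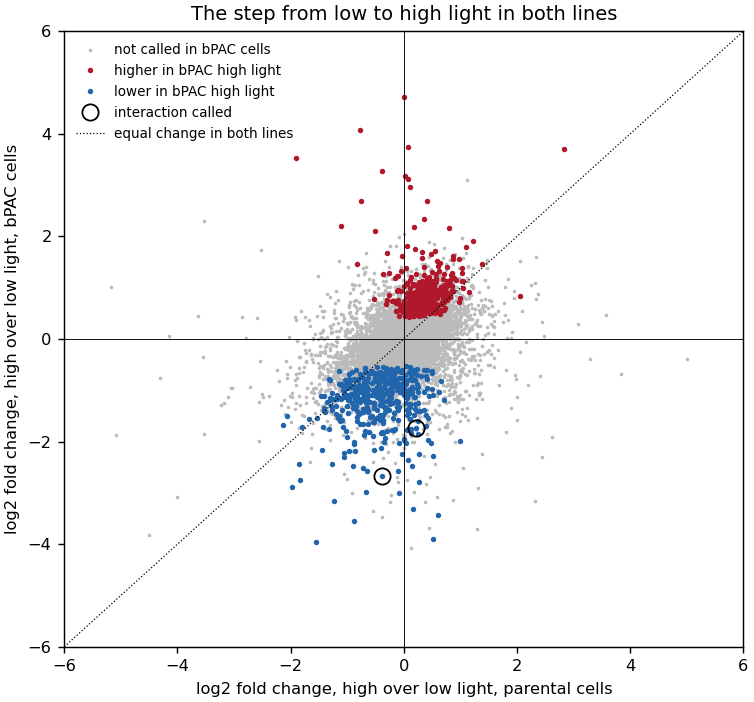
Log2 fold change of high over low light in bPAC cells (y) against that in parental cells (x) for the 8530 tested genes, coloured by the call in bPAC cells; circles mark the 2 genes with a called interaction and the dotted line an equal change in both lines. Genes called higher in bPAC cells lie mostly right of 0 (404 of 442) and genes called lower mostly left of it (337 of 429), both nearer to 0 in parental than in bPAC cells.

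Whether the step from low to high light differed between the lines was tested with an interaction term, which 2 genes passed (0.0234% of those tested), with 592 at an unadjusted p under 0.05. Both had fallen in bPAC cells. ENSCAFG00000000406, at 27.8 ± 1.89 CPM in bPAC high light (SD, n = 3) and 177 ± 24.9 CPM in bPAC low light (SD, n = 4), had 150 and 194 CPM in parental high light and 218, 241 and 214 CPM in parental low light. The step differed by a log2 value of -2.29 (SE 0.32; edgeR adjusted p = 0.00455). ENSCAFG00000016464 had 10.1, 13.0 and 8.68 CPM in bPAC high light and 41.0, 37.0, 28.4 and 36.6 CPM in bPAC low light. In parental cells it had 46.3 and 41.9 CPM in high light and 40.6, 38.3 and 35.5 CPM in low light, so that bPAC high light was the group that stood apart, also from the dark libraries of both lines at 31.5 to 37.3 CPM. The step differed by a log2 value of -1.96 (SE 0.28; edgeR adjusted p = 0.00455), which was 0.0540 in a fit of the 4 groups compared.

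On the side of the rises, 2 genes had the smallest interaction p without passing the threshold in the fit of all libraries, and both passed it under some alternatives. ENSCAFG00000000267 had 34.7, 31.4 and 15.3 CPM in bPAC high light and 1.43, 3.80, 3.51 and 2.51 CPM in bPAC low light, against 3.54 and 3.96 CPM in parental high light and 3.83, 4.61 and 6.27 CPM in parental low light (interaction log2 value 3.67, SE 0.73; edgeR adjusted p = 0.0715). Between the doses in bPAC cells it was called at a 9.72-fold difference (edgeR adjusted p = 0.000344). Its interaction passed with DESeq2 (adjusted p = 0.00189), no filter (edgeR, 5.98e-07), library totals alone (0.0475) and 1 surrogate variable (0.0389), and without parental dark library 1 (0.0101), parental dark library 3 (0.0314) or bPAC high light library 3 (0.0451). ENSCAFG00000013418, described above in bPAC cells, had 157 and 102 CPM in parental high light and 122, 97.1 and 119 CPM in parental low light (interaction log2 value 1.55, SE 0.31; edgeR adjusted p = 0.0715). It passed with DESeq2 (adjusted p = 0.00321), no filter (edgeR, 0.00381) and library totals alone (0.0475). The number of genes passing the interaction was 42 with the DESeq2 test, 5 with limma-voom, 27 with library totals alone and 70 with no filter on low counts. It was 8 without parental high light library 2, 6 without bPAC high light library 3, and 4 without bPAC low light library 4, parental dark library 1 or parental dark library 3.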

How the data were processed

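Libraries were made with Lexogen's SPLIT and QuantSeq 3' FWD kits, per the labels' protocols, so a count does not scale with transcript length and depends on how well a 3' end is annotated. The authors deposited 1 table of unnormalised read counts per library, with 32220 gene IDs and 5 rows of reads without a gene, which were kept out of all totals and tests. The submitters' processing notes name the build CanFam3.1, and the sources used here name no aligner, counting program or annotation release. Levels of genes with near copies or overlapping genes are uncertain.

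All 18 libraries entered 1 model of 6 groups. Genes were kept by filterByExpr (minimum count 10; 8530 genes), scaled by TMM and tested with edgeR 4.0.16 (robust glmQLFit, glmQLFTest; R 4.3.3), with Benjamini-Hochberg adjustment at 0.05. SEs are log2 fold changes divided by the root of F. A prior count of 2 was used in the log2 CPM behind principal components. The 9 pairs of libraries within the 2 groups differed beyond sampling noise (chi-square over its degrees of freedom 12.7 to 63.9), and each counted as a replicate. On simulated counts for bPAC high versus low light, with 200 of 8530 genes changed, 42% of 2-fold and 74% of 4-fold changes were called, with 6 false calls. Each gene was drawn independently, and unchanged genes had the same mean level in all 18 libraries. The simulation thus held no variation shared by the genes of a library, and its rates need not hold for the real libraries.

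Members, lists and rules were chosen with earlier results of these data known. Named genes are the 2 per direction with the smallest p for the dose comparison and for the interaction, of those whose libraries did not overlap and whose higher group averaged 5 CPM or more, and the 2 per direction of each course called at both steps. The 3 genes that crossed the dark level and the 1 gene called in parental cells were added afterwards because they were so few. Gene lists by symbol were not used, since 0 IDs could be paired. Alternatives were DESeq2 1.42.0 (size factors, and its Wald test), library totals, limma-voom (limma 3.58.1), 1 surrogate variable (sva 3.50.0), other filters, thinning to equal depth, fewer groups and leaving libraries out.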

Additional observations from a re-analysis of the deposited data

Results flagged for a closer look

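ENSCAFG00000000406 and ENSCAFG00000016464 were flagged because the step from low to high light differed between the lines by test, by log2 values of -2.29 and -1.96 (edgeR adjusted p = 0.00455 for each). In the 4 low light libraries of bPAC cells, library 3 lay far from the other 3 for 2 genes. It held 18.1 CPM of ENSCAFG00000020215, where the others held 12.4 to 12.9 CPM, and 70.8 CPM of ENSCAFG00000013369, where the others held 78.4 to 79.7 CPM. Both passed Dixon's ratio test at a level of 0.05, which by its construction flags about 1 in 20 groups by chance; 22 sets of 4 values were looked at.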

How the results depend on the processing

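No paired analysis was possible because the labels give no replicate numbers; those used here number the libraries of a group in accession order and pair nothing. The 871 genes called between the doses became 273 with only the groups compared, 447 with the 10 bPAC libraries, 332 without low light replicates 1 and 4, 1320 without replicates 2 and 3, and 189 to 899 on leaving out 1 library; the other settings stayed within 1.5 times. The pairs of low light replicates left out were those that lay apart on the first principal component of these libraries. The share of called genes that rose was 14.7% with library totals, 34.1% with only the groups compared and 38.3% with the bPAC libraries alone. The single parental call became 43 with DESeq2, 52 with no filter, and 0 to 3 on leaving out 1 library (0 without parental low light replicate 1). The 2 interaction calls became 27 with library totals, 42 with DESeq2, 5 with limma-voom, 70 with no filter, 1 with only the groups compared, 6 without low light replicates 1 and 4, 4 without replicates 2 and 3, and 2 to 8 on leaving out 1 library.

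With only the groups compared, courses numbered 93 with opposite steps, 7 in the same direction, 117 in high light alone and 32 with neither dose called against the dark. With the 10 bPAC libraries they numbered 185, 21, 163 and 78. Without low light replicates 1 and 4 they were 56 with opposite steps, 10 in the same direction and 44 with neither, and without replicates 2 and 3 they were 926 with opposite steps and 8 in the same direction. No filter gave 57 in the same direction. On leaving out 1 library the ranges were 62 to 492 for opposite steps, 8 to 42 for the same direction, 85 to 283 for high light alone and 32 to 315 for neither. The cause of these changes was not tested. The same direction count was lowest without high light replicate 2 (8); the neither count was lowest without high light replicate 1 (32) and highest without bPAC dark replicate 2 (315).

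On leaving out 1 of the 7 libraries, the difference between high and low light was 2.86 to 4.19 percentage points for reads at more than 1 place, -3.06 to -2.38 for reads outside genes and 0.715 to 2.71 for the 10 most abundant genes. For ambiguous reads per 100 gene reads it was -0.00515 to 0.00217, and the sign turned without high light replicate 3 (0.00217) and low light replicate 1 (0.00031). Of the fold changes of named genes under the alternatives, 651 kept sign and side of the threshold, 24 lost the call, 10 gained it, and 0 changed sign. Under 2 CPM, 23 of 906 tested genes were called; the part of depth in this was not tested.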
